A study of Arabidopsis thaliana with 6 samples.

Results

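The 45 nuclear genes described here encode the light-harvesting antenna proteins of photosystem II (*LHCB*, 14 genes) and photosystem I (*LHCA*, 6 genes), subunits of photosystem I (*PSA*, 12 genes) and photosystem II (*PSB*, 9 genes), and the small subunit of Rubisco (*RBCS*, 4 genes). They were chosen by gene identifier from the 33316 genes of the tables, for what they encode and not for their values. Earlier results of these data were known when the choice was made. RNA was sequenced from the second internodes of the inflorescence stem of *Arabidopsis thaliana* carrying *p35S:Myc-GR-bdl*, with 3 libraries after mock treatment (Mock) and 3 after a dip in 15 µM dexamethasone, taken 3 h later (DEX). This transgene expresses a stabilized form of the AUX/IAA protein BODENLOS, a repressor of auxin signalling, fused to the glucocorticoid receptor and a Myc tag, under the broadly active 35S promoter, so that dexamethasone (Dex) activates the fusion protein throughout the plant. All 6 libraries share the transgene by their titles and source names, although the text on plant growth speaks of wild type (Col-0). Plants lacking the transgene were not analysed here, so an effect of Dex alone and an effect of the activated protein cannot be told apart. The labels speak of pooled RNA and the study of several plants per replicate, and p-values measure the spread between these libraries.

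Antenna proteins bind chlorophyll and pass the energy of absorbed light to the reaction centres, where photosystem II withdraws electrons from water and photosystem I hands them on to ferredoxin. The reaction centre cores and the large subunit of Rubisco are encoded in the plastid, while the genes described here are transcribed in the nucleus and their proteins are imported into the chloroplast. Green stems of *Arabidopsis* are photosynthetic, with chloroplasts mainly in the cortex. Light, the circadian clock and the state of the chloroplast are known to set the transcription of this group. The 7 plastid-encoded genes listed as its partners, among them *RBCL* and *PSBA*, were not analysed here.

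The libraries held between 30601253 and 37812400 total gene reads, of which 96.4% to 96.9% were unique. The first principal component of all tested genes separated Mock from DEX with 63.5% of the variance. Along the second, with 20.4%, Mock 1 and DEX 1 lay at one end and DEX 3 and Mock 3 at the other. Reads of ribosomal RNA genes made up 0.369% ± 0.198 of the Mock libraries and 0.141% ± 0.0224 of the DEX libraries (standard deviation, n = 3 each). Its part in the results below was not tested.

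The members took between 2.05% (DEX 1) and 3.39% (Mock 2) of all gene reads. Levels of different genes were compared as RPKM, the reads over a gene's exons scaled to exon length and to the reads of the library. On that scale 2 antenna genes of photosystem II, *LHCB1.5* and *LHCB1.3*, were the most abundant members in Mock, with 3027 ± 265 and 2989 ± 565 RPKM, ranks 8 and 10 among all genes. They were followed by *RBCS1A* with 2513 ± 325 RPKM and *PSBR* with 2498 ± 413 RPKM, ranks 16 and 17. The standard deviations of these 4 genes overlap those of their neighbours within each pair, and their order within a pair is not resolved. At the low end stood the alternative antenna genes *LHCA6* with 6.83 ± 2.83 RPKM, *LHCB4.3* with 21.7 ± 5.02 RPKM and *LHCB2.3* with 23.4 ± 5.96 RPKM. Each of the 45 members had over 1000 reads in the 6 libraries together and passed the filter on low counts.

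**Figure D1:**
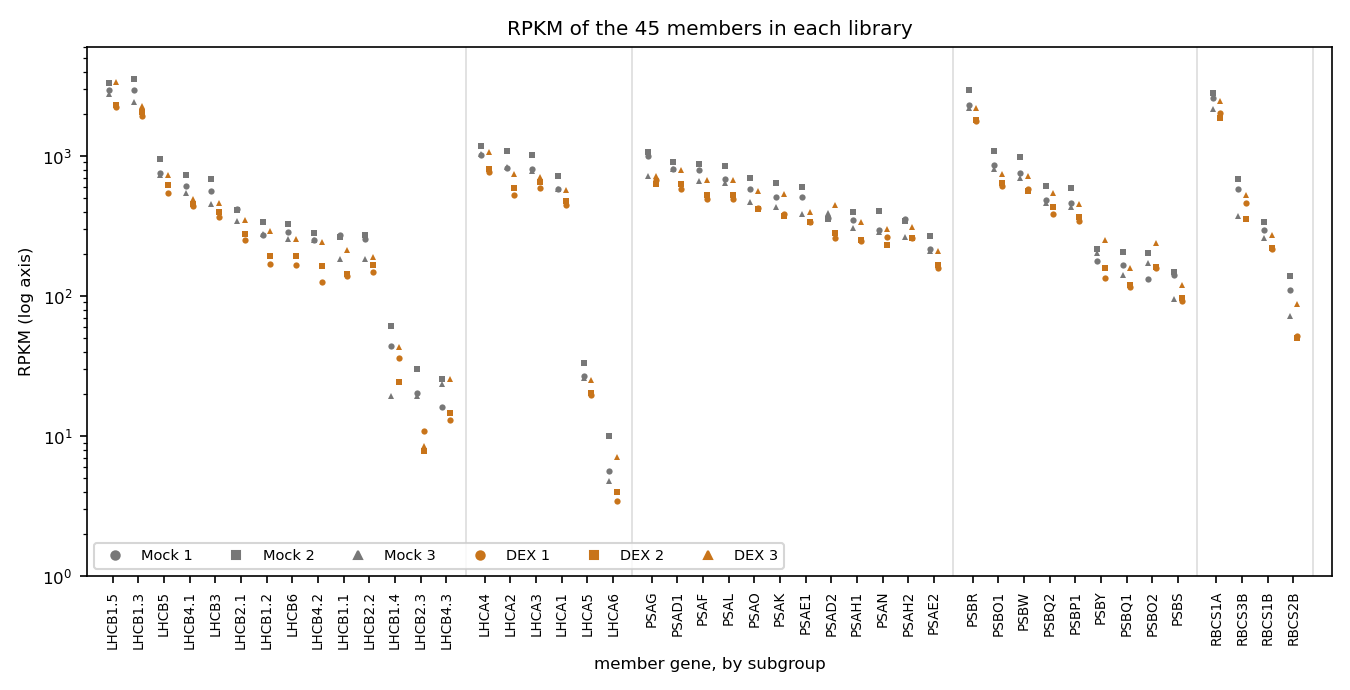
RPKM (log axis) of each of the 45 members in the 3 Mock (grey) and 3 DEX (orange) libraries, by subgroup; each symbol is a library. *LHCB1.5* and *LHCB1.3* lie highest, with Mock means of 3027 and 2989 RPKM, and *LHCA6* lowest, and for *LHCB2.3* the DEX libraries lie clearly below the Mock libraries.

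After Dex, transcript levels of the group leaned slightly downwards, and a single member, *LHCB2.3*, passed the adjusted threshold. In edgeR's quasi-likelihood test on total gene reads, adjusted by Benjamini-Hochberg over the 19598 genes tested, 1 of 45 members fell and 0 rose at an adjusted p under 0.05, whereas 11.9% of all tested genes passed that threshold (5.5% fell and 6.38% rose). Without adjustment, 15 of the 45 members (33.3%) had a p under 0.05, against 23.3% of all genes. The fitted log2 fold change was below 0 for 44 of the 45 members, against 51.6% of all genes. Its median over the members was -0.30, or -18.5%, with a median standard error of 0.17, and its median over all genes was -0.01. With 1 library left out, the median over the members ranged from -0.42 (without DEX 3) to -0.17 (without Mock 2). DEX libraries lay below Mock libraries without overlap for 6 members (*LHCB1.3*, *LHCB2.3*, *LHCB4.1*, *LHCA2*, *LHCA3* and *PSBO1*) and above them for 0, against 14.3% and 13.9% of all genes. The share of members below is thus near that of all genes. The groups overlapped for 86.7% of the members, against 71.7% of all genes. The members share libraries and are known to be regulated together, so these counts are a description of 6 libraries and not of 45 independent genes.

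The subgroups did not stand far apart. The median log2 fold change was -0.38 for *LHCB*, -0.34 for *LHCA*, -0.26 for *PSA*, -0.28 for *PSB* and -0.24 for *RBCS*. For 41 of the 45 members the lower end of the 95% interval of the log2 fold change was above -1. The same held for 17491 of the 19598 genes tested, so this is not particular to the members. In bulk tissue, fewer chloroplast-bearing cells in a sample and less of these RNAs per cell cannot be told apart. The number of members called depended on the library left out. Without DEX 3, 6 members fell (*PSAD2*, *LHCB6*, *LHCB1.2*, *LHCB4.2*, *LHCB2.3* and *LHCA2*), and 0 rose, where 5.09% of all genes fell and 6.09% rose. Without Mock 3, 3 members fell (*PSAG*, *LHCB2.2* and *LHCB2.3*), and 0 rose, where 4.47% of all genes fell and 4.6% rose, and without any of the others 1 member fell. With DESeq2, 3 members fell (*LHCB1.3*, *LHCB2.3* and *LHCA2*), and 0 rose, where 6.59% of all genes fell and 8.65% rose.

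**Figure D2:**
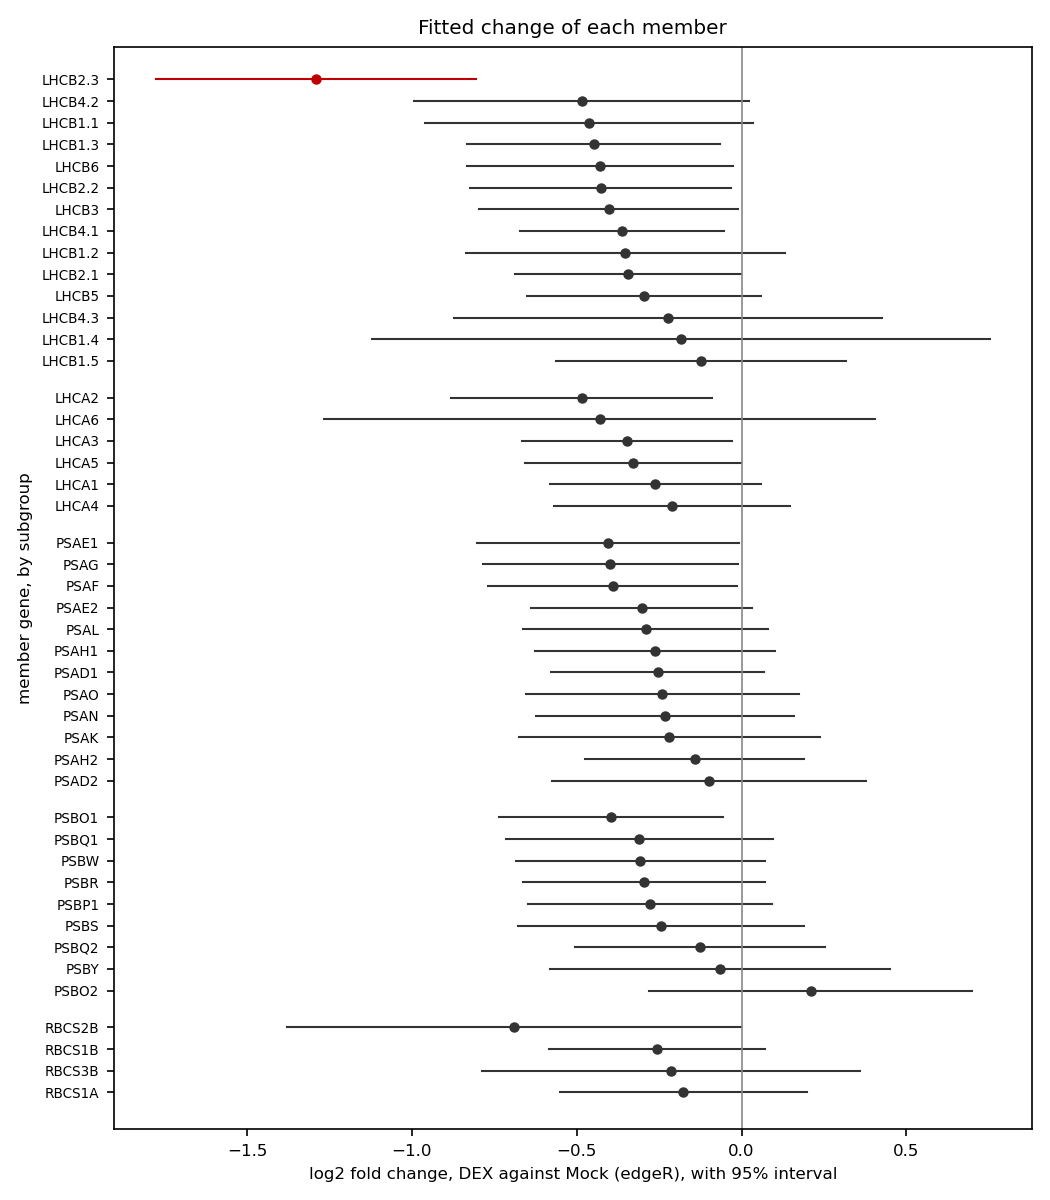
Fitted log2 fold change of DEX against Mock for each member (points) with its 95% interval (lines), sorted within the 5 subgroups; red marks an adjusted p under 0.05. Of the 45 points, 44 lie below 0, and only the interval of *LHCB2.3*, at -1.29, is far from 0.

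The LHCB2 proteins are, with LHCB1 and LHCB3, the trimeric major antenna of photosystem II, and phosphorylated LHCB2 is known for its part in the movement of antenna between the photosystems. *LHCB2.3* (AT3G27690, chr3:10255906-10257489, plus strand, in TAIR10.1) is the least abundant of its 3 genes in the stem. Levels of a gene in each library are given as CPM, its total gene reads scaled to the library size with TMM factors. *LHCB2.3* had 19.2, 27.9 and 18.0 CPM in Mock 1 to 3 and 10.8, 7.51 and 8.26 CPM in DEX 1 to 3. All 3 DEX libraries lay below the lowest Mock library. *LHCB2.3* fell by 1.29 ± 0.21 (standard error) on the log2 scale, for which edgeR gave an adjusted p of 0.00697. It was called in all 16 alternative fits, with an adjusted p between 2.42e-07 and 0.0319 and a log2 fold change between -1.46 and -1.07. In the RefSeq gene models, a gene on the opposite strand, AT3G27700, covers 595 bases of it. That neighbour had 6375 reads in the 6 libraries, 3165 for *LHCB2.3*, and a log2 fold change of 0.02 ± 0.11. Whether the gene models that the authors used for counting hold the same overlap was not checked.

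All reads of *LHCB2.3* were unique, and its sequence is shown beside its relatives to make the distance between them visible. The stretch below is 50 bases of coding sequence, the length of a read, from RefSeq TAIR10.1, bases 301 to 350 from the start codon in *LHCB2.1* and *LHCB2.2* and bases 304 to 353 in *LHCB2.3*, with capitals where a base differs from *LHCB2.1*.
LHCB2.1: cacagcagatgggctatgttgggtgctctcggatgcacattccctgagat
LHCB2.2: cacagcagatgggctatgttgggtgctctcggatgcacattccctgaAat
LHCB2.3: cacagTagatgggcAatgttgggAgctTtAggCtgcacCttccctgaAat
In this stretch *LHCB2.2* differed from *LHCB2.1* at 1 base and *LHCB2.3* at 8 bases. Over the whole coding sequence of 798 bases *LHCB2.1* and *LHCB2.2* were 96.6% identical.

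The 2 other genes of the family did not pass the test. *LHCB2.1* (AT2G05100) had 450, 442 and 368 CPM in Mock and 291, 306 and 395 CPM in DEX. *LHCB2.2* (AT2G05070) had 267, 283 and 189 CPM in Mock and 165, 177 and 208 CPM in DEX. For both genes the groups overlapped, because DEX 3 was above Mock 3. Their log2 fold changes were -0.34 ± 0.15 and -0.43 ± 0.17, with edgeR adjusted p of 0.214 and 0.178.

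The sequences upstream of the family are shown because 1 of its genes passed the test and 2 did not. Those of *LHCB2.1* and *LHCB2.3* also hold different motifs known from light-regulated genes. The difference in response between the 3 genes was not tested. They are the 250 bases before the annotated start of each gene in RefSeq TAIR10.1 (chr2:1824481-1824730, minus strand, chr2:1800473-1800722, minus strand, and chr3:10255656-10255905, plus strand), with the G-box CACGTG and the core of the I-box, GATAAG, in capitals on either strand.
LHCB2.1: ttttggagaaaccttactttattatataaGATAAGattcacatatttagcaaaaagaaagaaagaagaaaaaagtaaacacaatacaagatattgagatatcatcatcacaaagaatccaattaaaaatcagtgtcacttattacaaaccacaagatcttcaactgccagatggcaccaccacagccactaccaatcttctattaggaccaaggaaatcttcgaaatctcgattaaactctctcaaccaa
LHCB2.2: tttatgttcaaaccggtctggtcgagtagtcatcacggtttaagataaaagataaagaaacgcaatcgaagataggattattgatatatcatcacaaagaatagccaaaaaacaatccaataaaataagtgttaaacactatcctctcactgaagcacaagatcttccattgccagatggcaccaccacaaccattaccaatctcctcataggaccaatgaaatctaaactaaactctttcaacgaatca
LHCB2.3: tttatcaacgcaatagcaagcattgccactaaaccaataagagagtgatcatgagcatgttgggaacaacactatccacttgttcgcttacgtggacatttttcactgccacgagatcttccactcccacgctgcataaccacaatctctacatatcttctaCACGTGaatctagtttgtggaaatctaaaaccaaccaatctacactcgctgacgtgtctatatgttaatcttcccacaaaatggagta
The window of *LHCB2.1* holds the I-box core at -221, that of *LHCB2.3* a G-box at -88, and that of *LHCB2.2* neither. A match of letters is a description and says nothing of binding.

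The 5 *LHCB1* genes lie in 2 clusters, *LHCB1.1*, *LHCB1.2* and *LHCB1.3* on chromosome 1 and *LHCB1.4* and *LHCB1.5* on chromosome 2. *LHCB1.5* (AT2G34420), the most abundant member of the subgroup, had 3060, 3373 and 2841 CPM in Mock and 2449, 2420 and 3647 CPM in DEX. DEX 1 and DEX 2 were below every Mock library and DEX 3 was above them all. Its log2 fold change was -0.12 ± 0.19, with an edgeR adjusted p of 0.777. *LHCB1.3* (AT1G29930), of nearly the same abundance, had 3035, 3630 and 2483 CPM in Mock and 2096, 2164 and 2441 CPM in DEX. Here the groups did not overlap, though DEX 3 and Mock 3 lay close together, and the log2 fold change was -0.45 ± 0.16 with an edgeR adjusted p of 0.145 (0.0401 by DESeq2). *LHCB1.4* was low and uneven, with 43.4, 59.8 and 18.8 CPM in Mock and 37.8, 24.4 and 45.1 CPM in DEX, and it had the widest interval of the log2 fold change, from -1.12 to 0.75.

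The minor antenna proteins LHCB4 (CP29), LHCB5 (CP26) and LHCB6 (CP24) are monomers that join the trimers to the core of photosystem II. *LHCB4.1* (AT5G01530) had 733, 874 and 650 CPM in Mock and 565, 562 and 628 CPM in DEX. The groups did not overlap, by a margin between DEX 3 and Mock 3 that was smaller than the spread within Mock. The log2 fold change was -0.36 ± 0.13, with an edgeR adjusted p of 0.146. Its paralog *LHCB4.2* (AT3G08940) had 297, 334 and 294 CPM in Mock and 160, 199.982 and 300.3 CPM in DEX. DEX 3 was at the Mock level and the other DEX libraries were below it. The log2 fold change was -0.49 ± 0.22, with an edgeR adjusted p of 0.237, which became 0.0128 without DEX 3, at -0.77 ± 0.13. *LHCB3*, *LHCB5* and *LHCB6* had log2 fold changes of -0.40 ± 0.17, -0.30 ± 0.15 and -0.43 ± 0.17, with edgeR adjusted p of 0.203, 0.309 and 0.186.

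Of the *LHCA* genes, which encode the antenna belt of photosystem I, 0 of 6 passed the test, against 11.9% of all tested genes. *LHCA4* (AT3G47470), the most abundant, had 1273, 1458 and 1272 CPM in Mock and 1026, 1032 and 1401 CPM in DEX. Only DEX 3 was within the range of Mock, and the log2 fold change was -0.21 ± 0.15 with an edgeR adjusted p of 0.499. *LHCA2* (AT3G61470) had 903, 1167 and 894 CPM in Mock and 614, 653 and 851 CPM in DEX. These groups did not overlap, and the log2 fold change of -0.48 ± 0.17 had an edgeR adjusted p of 0.129 (0.0405 by DESeq2). *LHCA3* (AT1G61520) had 1183, 1456 and 1133 CPM in Mock and 908, 975 and 1083 CPM in DEX, again without overlap, with -0.35 ± 0.14 on the log2 scale (edgeR adjusted p of 0.176). *LHCA5* and *LHCA6*, the scarce antenna proteins known for the contact between photosystem I and the NDH complex, had log2 fold changes of -0.33 ± 0.14 and -0.43 ± 0.36.

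The *PSA* genes cover the stromal ridge that docks ferredoxin (*PSAD*, *PSAE*), the plastocyanin side (*PSAF*, *PSAN*) and the subunits that contact antenna (*PSAG*, *PSAH*, *PSAK*, *PSAL*, *PSAO*). Of these 12 genes 0 passed the test, against 11.9% of all tested genes. For all 12 the groups overlapped, against 71.7% of all tested genes. *PSAG* (AT1G55670), the most abundant in RPKM, had 771, 813 and 543 CPM in Mock and 548, 492 and 575 CPM in DEX. Mock 3 was as low as the DEX libraries. The log2 fold change was -0.40 ± 0.16, with an edgeR adjusted p of 0.200, which became 0.0426 without Mock 3. The others ranged from -0.41 ± 0.17 for *PSAE1* to -0.10 ± 0.20 for *PSAD2*. *PSAD2* had 316, 310.0 and 341 CPM in Mock and 240.3, 253 and 410 CPM in DEX, so that DEX 3 was the highest of the 6 libraries and DEX 1 and DEX 2 the lowest.

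The *PSB* genes encode the extrinsic proteins of the oxygen-evolving complex (*PSBO*, *PSBP*, *PSBQ*) and *PSBR*, a subunit near that complex. The others are the small membrane subunits *PSBW* and *PSBY*, and *PSBS*, which is required for the rapid dissipation of excess light as heat. Of these 9 genes 0 passed the test, against 11.9% of all tested genes. *PSBR* (AT1G79040) had 1641, 2084 and 1550 CPM in Mock and 1349, 1311 and 1639 CPM in DEX, with Mock 1 and DEX 3 at the same level. Its log2 fold change was -0.30 ± 0.16, with an edgeR adjusted p of 0.326. *PSBY* was nearest to 0 of the fitted values below 0, at -0.07 ± 0.22. It had 190, 229 and 213 CPM in Mock and 152, 174 and 279 CPM in DEX. Here too DEX 3 was the highest library and DEX 1 and DEX 2 the lowest.

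*PSBO1* (AT5G66570) and *PSBO2* (AT3G50820) encode the manganese-stabilizing protein of photosystem II, with *PSBO1* the more abundant. *PSBO1* had 1058, 1323 and 985 CPM in Mock and 798, 808 and 952 CPM in DEX. The groups did not overlap, and the log2 fold change was -0.40 ± 0.15 with an edgeR adjusted p of 0.148. *PSBO2* had 162, 247 and 209 CPM in Mock and 205, 203 and 307 CPM in DEX, with DEX 3 above all other libraries. *PSBO2* was the only member with a fitted value above 0, at 0.21 ± 0.21 and an edgeR adjusted p of 0.643, and without DEX 3 the value was -0.01. The ratio between both genes depends on no scaling of the libraries. In unique reads the log2 ratio of *PSBO1* to *PSBO2* was 2.70, 2.42 and 2.23 in Mock and 1.96, 1.99 and 1.63 in DEX. The groups did not overlap, and the difference of -0.59 reached the smallest p that an exact two-sided permutation test of 3 against 3 allows, 0.1 (0.35 after Benjamini-Hochberg adjustment over 7 paralog pairs).

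*PSBQ1* (AT4G21280) and *PSBQ2* (AT4G05180) encode paralogs of an extrinsic protein of the oxygen-evolving complex. *PSBQ1* had 149, 182 and 126 CPM in Mock and 110.3, 110 and 149 CPM in DEX. Its log2 fold change was -0.31 ± 0.17. *PSBQ2* had 498, 618 and 465 CPM in Mock and 419, 453 and 577 CPM in DEX, and a log2 fold change of -0.13 ± 0.16. For both genes the groups overlapped and the edgeR adjusted p, 0.355 and 0.732, was above the threshold. The log2 ratio of *PSBQ1* to *PSBQ2* was -1.74, -1.76 and -1.89 in Mock and -1.93, -2.04 and -1.95 in DEX. The difference of -0.18 was without overlap as well, with an exact permutation p of 0.1, adjusted 0.35. In the other 5 pairs the groups overlapped. For *LHCB4.1* to *LHCB4.2* the difference was 0.18, with log2 ratios of 1.302, 1.39 and 1.14 in Mock and 1.82, 1.49 and 1.07 in DEX and an exact permutation p of 0.5 (0.583 adjusted).

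**Figure D3:**
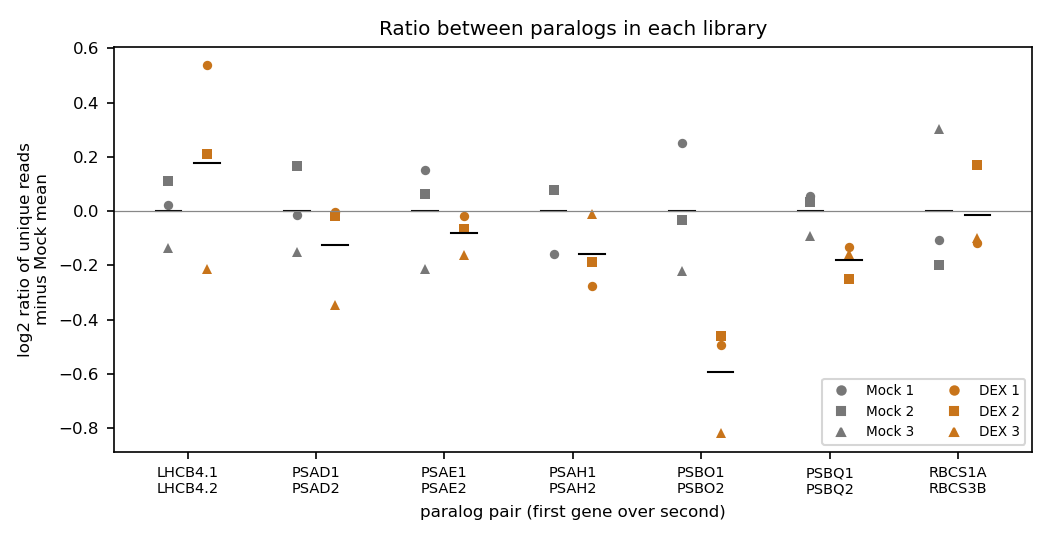
Log2 ratio of unique reads between the genes of 7 paralog pairs in each library, less the mean of the Mock libraries of that pair; grey symbols are Mock, orange symbols DEX, bars the group means. The DEX libraries of *PSBO1*/*PSBO2* lie below every Mock library, at a mean of -0.59, and those of *PSBQ1*/*PSBQ2* at -0.18.

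Rubisco fixes CO2 with a small subunit encoded by 4 genes, *RBCS1A* on chromosome 1 and *RBCS1B*, *RBCS2B* and *RBCS3B* in tandem on chromosome 5. *RBCS1A* (AT1G67090), the most abundant, had 2602, 2796 and 2158 CPM in Mock and 2158, 1931 and 2598 CPM in DEX. The groups overlapped over most of their range, and the log2 fold change was -0.18 ± 0.16 with an edgeR adjusted p of 0.602. *RBCS2B* (AT5G38420), the scarcest of the 4 genes, had 93.4, 118 and 61.0 CPM in Mock and 46.9, 43.3 and 78.4 CPM in DEX. DEX 1 and DEX 2 were below every Mock library and DEX 3 was above Mock 3. Its log2 fold change was the second lowest of the members, -0.69 ± 0.29, with an edgeR adjusted p of 0.214. *RBCS1B* and *RBCS3B* had log2 fold changes of -0.26 ± 0.14 and -0.21 ± 0.25.

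Of all members, *RBCS1B* had the lowest share of unique reads, 56.4%, followed by *LHCB2.2* with 62.2% and *LHCB2.1* with 63.0%. The stretch below, bases 301 to 350 of the coding sequence in RefSeq TAIR10.1, shows how alike the genes are over the length of a read, with capitals where a base differs from *RBCS1B*.
RBCS1B: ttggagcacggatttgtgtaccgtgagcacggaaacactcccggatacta
RBCS2B: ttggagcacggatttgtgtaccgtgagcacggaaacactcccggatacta
RBCS3B: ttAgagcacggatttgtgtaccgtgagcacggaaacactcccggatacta
RBCS1A: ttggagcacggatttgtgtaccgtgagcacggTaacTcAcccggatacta
*RBCS2B* equals *RBCS1B* at each of the 50 bases, *RBCS3B* differs at 1 and *RBCS1A* at 3. Over 546 bases of coding sequence *RBCS2B* was 97.3% and *RBCS3B* 96.7% identical to *RBCS1B*. The 250 bases before the start of *RBCS2B* (chr5:15382072-15382321, minus strand), with the same motifs in capitals, hold a G-box at -123 and the I-box core at -146, -115 and -94, the one at -115 on the opposite strand.
RBCS2B: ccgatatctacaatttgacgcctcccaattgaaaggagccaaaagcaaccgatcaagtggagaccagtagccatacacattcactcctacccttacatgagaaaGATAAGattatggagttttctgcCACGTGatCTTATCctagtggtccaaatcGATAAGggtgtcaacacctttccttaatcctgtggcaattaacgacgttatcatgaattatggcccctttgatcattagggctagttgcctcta
It is shown because *RBCS2B* and *LHCB2.3* had the lowest fold changes of the members, and both windows hold a G-box. Each window ends at the annotated start of its gene, so a motif past that start was not counted. A link between these motifs and the fold changes was not tested.

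Over all members, the G-box was found in the 250 bases upstream of 9 of 45 genes (20.0%) and in 6.49% of 27443 windows of that length. The 9 genes were *LHCB2.3*, *LHCB4.1*, *LHCB6*, *LHCA4*, *PSAE2*, *PSAH2*, *PSBQ1*, *PSBQ2* and *RBCS2B*, so that the motif was also present at members with small fitted changes. The core of the I-box was found at 10 members (22.2%) and in 12.3% of all windows. The auxin response element TGTCTC was found at 5 members (11.1%), *LHCB4.2*, *PSAH2*, *PSAK*, *PSAO* and *PSBO1*, and in 10.9% of all windows. The evening element AAAATATCT, known from clock-regulated genes, was found at 1 member, *LHCA5* (2.22%), and in 2.36% of all windows. Both strands were searched, and none of the motifs overlaps another by its letters.

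Reads that were not unique moved none of the fitted values far. In 12 members fewer than 90% of the reads were unique, down to 56.4% for *RBCS1B*, and in 30 members more than 99% were. Among the 12 were *PSAH1* (74.7%) and *LHCA2* (86.7%), whose RefSeq transcripts share no stretch of 50 bases with another member. With unique reads alone the log2 fold change differed by at most 0.04 (*LHCB1.4*), and *LHCB2.3* was again the only member called. In RefSeq TAIR10.1, 17 members overlap another gene, among them *PSAH1*, where AT3G16130 on the opposite strand covers 788 bases. The whole of AT3G16130 had 235 reads in the 6 libraries. The sources used here do not say whether reads were counted by strand. Whether the authors' gene models hold the same overlaps was not checked. Intron reads, which include unspliced transcripts, were found for 34 members and summed to 24.6 ± 4.36 CPM in Mock and 22.6 ± 4.75 CPM in DEX. These ranges overlap.

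The summed level of the members ranged more widely within each group than between the group means. It was 28156, 32956 and 25007 CPM in Mock 1 to 3 and 21435, 21355 and 27779 CPM in DEX 1 to 3, or 28706 ± 4003 in Mock and 23523 ± 3686 in DEX (ratio 0.819). DEX 1 and DEX 2 lay below every Mock library, while DEX 3 was above Mock 3 and close to Mock 1. The ratio of DEX to Mock was 0.803 for *LHCB*, 0.802 for *LHCA*, 0.819 for *PSA*, 0.833 for *PSB* and 0.871 for *RBCS*. It was 0.745 for the members together without DEX 3 and 0.885 without Mock 2, the lowest and highest values with 1 library left out.

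**Figure D4:**
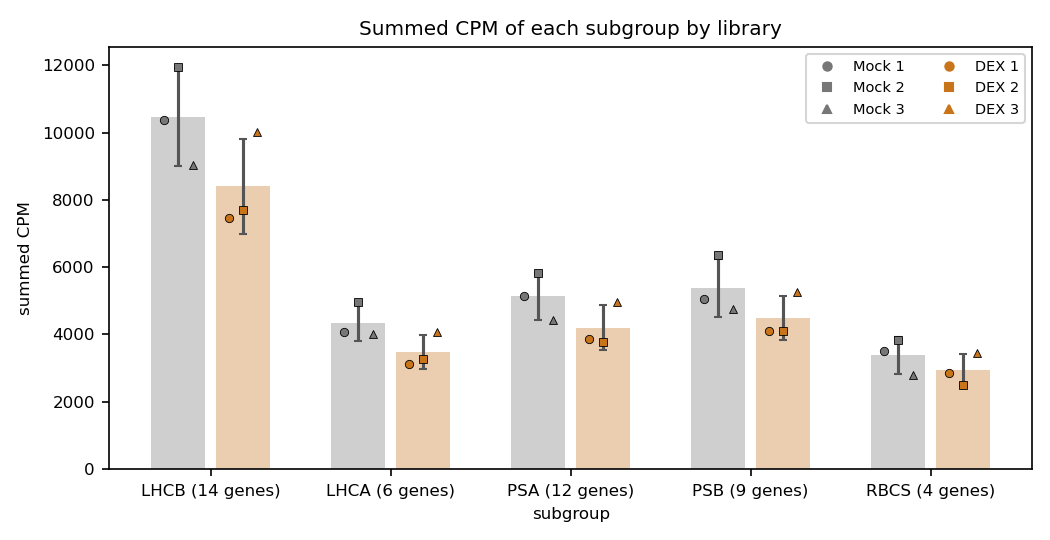
Summed CPM of each subgroup, with bars for the mean and lines for the standard deviation of 3 libraries per group, and symbols for the libraries. In each subgroup Mock 2 is the highest library, and DEX 3 is above Mock 3.

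This order of the libraries was shared by nearly all members. DEX 3 was the highest DEX library for 44 of the 45 genes, whereas it was so for 39.0% of all tested genes. Mock 2 was the highest Mock library for 41 members (26.9% of all genes) and Mock 3 the lowest for 40 (35.5% of all genes). DEX 1 and DEX 2 were both below every Mock library for 38 members, against 20.8% of all genes. The corresponding number was 6 for DEX 1 with DEX 3 and 6 for DEX 2 with DEX 3, because DEX 3 exceeded the lowest Mock library for 39 members. Single fitted values moved with the library left out in the same way. Each was lowest without DEX 3, and ranged from -0.34 to -0.02 for *LHCB1.5*, from -0.37 to -0.13 for *LHCA4*, from -0.40 to -0.16 for *PSBR*, from -0.47 to -0.16 for *PSBQ1*, from -0.30 to -0.08 for *RBCS1A* and from -1.01 to -0.46 for *RBCS2B*. Relative to a gene's own mean, the median member stood at 0.36 in Mock 2, 0.10 in Mock 1, -0.06 in Mock 3, 0.09 in DEX 3, -0.30 in DEX 2 and -0.31 in DEX 1 (log2). For all tested genes these medians lay between -0.02 and 0. For *LHCB2.3*, DEX 3 was at 8.26 CPM, between DEX 2 and DEX 1.

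**Figure D5:**
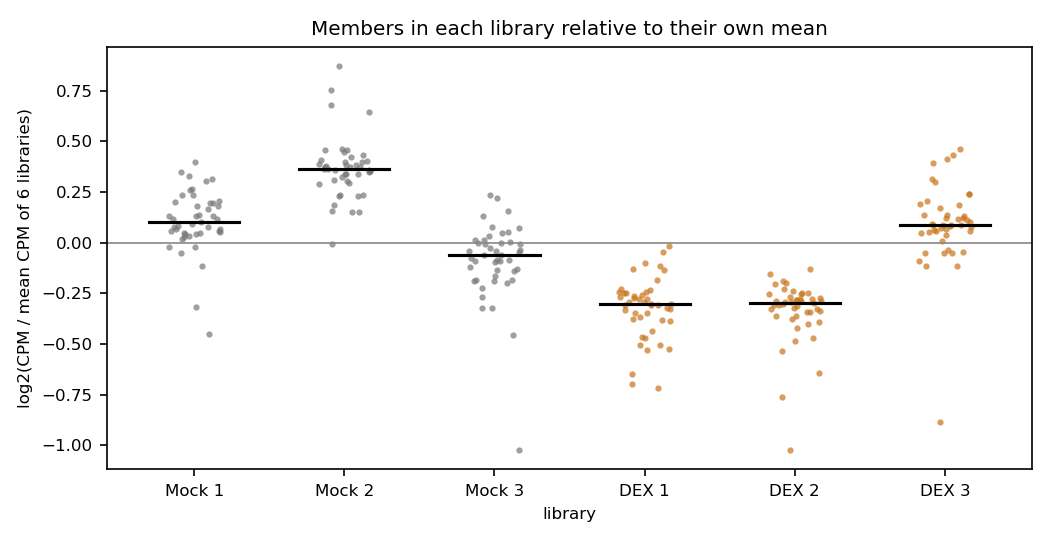
Log2 ratio of each member's CPM to its own mean over the 6 libraries (points, 45 per library; grey Mock, orange DEX) with the median as a bar. The medians run from -0.31 in DEX 1 to 0.36 in Mock 2, and DEX 3, at 0.09, lies among the Mock libraries.

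Most genes that act with the members in electron transport and the Calvin cycle were fitted below 0 as well. Of all tested genes, 51.6% were below 0. In both lists 0 genes passed the test, against 11.9% of all tested genes. Of 12 nuclear genes of electron transport and ATP synthesis, 10 were below 0 (83.3%), with a median log2 fold change of -0.13. *PETE2*, the major plastocyanin, had 648, 700.5 and 559 CPM in Mock and 508, 512 and 650.0 CPM in DEX, and the groups overlapped (-0.19 ± 0.14, edgeR adjusted p of 0.507). Of 15 genes of the Calvin cycle, 14 were below 0 (93.3%), with a median of -0.19. *RCA*, Rubisco activase, had 773, 947 and 821 CPM in Mock and 656, 687 and 872 CPM in DEX, with DEX 3 again within the Mock range (-0.20 ± 0.14, edgeR adjusted p of 0.503).

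Of 14 genes of chlorophyll synthesis 1 fell and 0 rose (7.14%, against 11.9% of all tested genes), with a median of -0.15. This was *PORA*, a light-dependent protochlorophyllide oxidoreductase of etiolated seedlings, at a very low level of 1.35, 1.27 and 1.21 CPM in Mock and 0.474, 0.415 and 0.409 CPM in DEX. The groups were far apart for its spread (-1.55 ± 0.22, edgeR adjusted p of 0.00408). *PORB*, the most abundant of the *POR* genes, was at -0.01 ± 0.10. *CHLH*, the large subunit of magnesium chelatase, was at -0.51 ± 0.15, above the threshold (edgeR adjusted p of 0.0703).

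Among 18 transcription factors and sigma factors known to act on photosynthesis genes, 1 rose and 1 fell. That is 11.1% of the list, near the 11.9% called of all tested genes. *PIF4* and *PIF5* encode related phytochrome-interacting factors. *PIF4* had 42.1, 44.0 and 37.6 CPM in Mock and 77.1, 73.9 and 68.9 CPM in DEX, and it rose (0.83 ± 0.09, edgeR adjusted p of 0.00122). *PIF5* had 38.1, 42.7 and 57.6 CPM in Mock and 10.6, 12.2 and 15.5 CPM in DEX, and it fell (-1.85 ± 0.20, edgeR adjusted p of 0.00116). In both genes the groups were far apart, in opposite directions. *GLK1* and *GLK2*, activators of antenna and chlorophyll synthesis genes, had log2 fold changes of 0.48 ± 0.19 and 0.15 ± 0.14 (edgeR adjusted p of 0.182 and 0.609), and *HY5*, a light-signalling bZIP factor, -0.13 ± 0.28. The clock genes *CCA1*, *LHY* and *TOC1* were at -0.04 ± 0.10, -0.08 ± 0.29 and 0.04 ± 0.15. Their libraries were not level. *LHY* had 5.66, 4.86 and 4.66 CPM in Mock and 5.94, 5.75 and 2.70 CPM in DEX, lowest in DEX 3. *HY5* was lowest in DEX 3 as well, at 10.8 CPM. *TOC1* was highest in DEX 3, at 117 CPM, and *CCA1*, at 15.2 CPM in DEX 3, lay within the Mock range. A link to the levels of the members was not tested.

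Of 5 relatives of the antenna proteins, 1 rose (20%), where 6.38% of all tested genes rose. *LHCB7*, a rarely expressed member of the antenna superfamily, had 10.3, 10.8 and 9.68 CPM in Mock and 18.6, 21.4 and 20.5 CPM in DEX. It rose by 0.98 ± 0.10 on the log2 scale (edgeR adjusted p of 0.000841). The DEX libraries were close to each other here, without the high value of DEX 3 seen in the members. The early light-induced genes *ELIP1* and *ELIP2* had log2 fold changes of -0.84 ± 0.53 and -2.09 ± 0.70, which did not pass (edgeR adjusted p of 0.419 and 0.113).

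Markers of other stem tissues were compared beside these values, as the proportions of tissue in an internode can differ between samples. The summed level of 4 epidermis markers ranged from 428 to 446 CPM in Mock and from 434 to 480.0 CPM in DEX. Of these, *PDF1* had only 12 reads in the 6 libraries and was not tested, and *CER6*, which makes up most of the sum, was at 0.07 ± 0.09 (edgeR adjusted p of 0.725). The 3 guard cell markers ranged from 44.0 to 54.2 CPM and from 48.2 to 50.5 CPM, and of these *FAMA* rose from 13.7 ± 0.438 to 18.7 ± 1.76 CPM (0.45 ± 0.10, edgeR adjusted p of 0.0249). This call was lost without any 1 of Mock 1, Mock 2, Mock 3 or DEX 1, with an adjusted p of up to 0.0846. The other 2 guard cell markers were below 0, *MYB60* at -0.11 ± 0.21 and *KAT1* at -0.24 ± 0.15 (edgeR adjusted p of 0.823 and 0.405), and the median of the list was -0.11. The 3 cellulose synthase genes of xylem and fibres ranged from 3487 to 3775 CPM and from 3030 to 4048 CPM, with *CESA4* at -0.11 ± 0.15 (edgeR adjusted p of 0.759).

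The 3 phloem markers ranged from 302 to 375 CPM in Mock and from 255 to 317 CPM in DEX. *SUC2*, a sucrose transporter of companion cells, had 230.1, 283 and 283 CPM in Mock and 162, 172 and 228 CPM in DEX, and the groups did not overlap by a small margin at DEX 3. At -0.50 ± 0.16 on the log2 scale it missed the threshold (edgeR adjusted p of 0.0873). It passed with DESeq2 (0.0229), with the replicate block (0.00951) and without DEX 3 (0.0179). *APL*, a transcription factor of phloem identity, lay the other way, with 13.03, 12.3 and 12.9 CPM in Mock and 20.0, 15.7 and 16.0 CPM in DEX. All DEX libraries were above all Mock libraries, and at 0.44 ± 0.12 on the log2 scale it missed the threshold by little (edgeR adjusted p of 0.0515). *AHA3* was at 0.07 ± 0.11, and the median of the list was 0.07. Of the 4 lists, 0 genes fell and 1 rose, and the summed ranges of Mock and DEX overlap in each. The part of tissue proportions in the levels of the members was not tested.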

How the data were processed

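The authors mapped 50-nucleotide single-end reads to TAIR10 in CLC Genomics Workbench, per the methods of the study. The deposited tables give counts per gene (total, unique, exon and intron reads) and RPKM values, which the authors derived from exon reads, exon length and total gene reads. Of 33323 entries, 5 without a gene name (0.093% to 0.135% of the reads per library) were left out, and 2 duplicated identifiers were summed. The members and all lists (15 lists with 129 genes) were chosen with earlier results of these data known.

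Total gene reads were tested with edgeR 4.0.16 in R 4.3.3 (filterByExpr, TMM, two-sided quasi-likelihood F test, Benjamini-Hochberg adjustment over 19598 genes, threshold 0.05). Genes that the filter removed held 0.0298% of the reads. Standard errors are the fold change divided by the square root of F, and the biological coefficient of variation was 15.8%. Expression is given as TMM-scaled CPM with the standard deviation of 3 libraries. The test was checked on simulated data. Paralog ratios were taken from unique reads plus 1 and tested by exact permutation in Python 3 with scipy. Alternatives were other scalings (RLE, upper quartile, library totals), no filter and a stricter filter, unique reads, exon reads, DESeq2 1.42.0, limma-voom (limma 3.58.1), a replicate block and leaving out each library. Values in each library are given for members called, the most abundant of each subgroup by RPKM, those with the 2 largest and 2 smallest fold changes and the 3 paralog pairs with the largest differences, and from other lists for called genes or, where there were none, the most abundant gene. Further genes, such as those without overlap between groups, were added after their values were seen. Counts come from reads without molecular identifiers. Gene positions and sequences were matched by identifier (32828 genes) to RefSeq TAIR10.1, and coordinates are from that assembly, since the tables hold none.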

Additional observations from a re-analysis of the deposited data

How the results depend on the processing

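*LHCB2.3* kept its direction and call under all 16 alternatives. The number of members that fell was 3 with DESeq2 and ranged from 1 to 6 with 1 library left out, and 0 rose under each of them. Over all tested genes, DESeq2 called 1292 that fell and 1696 that rose. With DESeq2, 2 *LHCB* and 1 *LHCA* gene fell. With 1 library left out, 1 to 4 *LHCB*, 0 to 1 *LHCA*, 0 to 1 *PSA*, 0 *PSB* and 0 *RBCS* genes fell, and the median log2 fold change of the members ranged from -0.42 (without DEX 3) to -0.17 (without Mock 2). Scaling by library totals alone moved that median to -0.37, with -0.08 for all genes. Over all tested genes, 690 to 1000 fell and 615 to 1198 rose with 1 library left out, the lowest numbers without Mock 2.

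Deviations from the group means correlated across the groups for replicate numbers 1 and 3, and not for number 2. The correlation of deviations between libraries of the same number was 0.52, 0.02 and 0.51. It was -0.54 between Mock 1 and DEX 3 and -0.47 between Mock 3 and DEX 1. Mock 2 was near 0 with DEX 1, DEX 2 and DEX 3 (-0.08, 0.02 and 0.05). The deviations of a group are tied together by its mean, so these correlations are not independent. Whether the numbers mark pairs was not tested. The members did not follow the numbers, with Mock 3 the lowest Mock library for 40 and DEX 3 the highest DEX library for 44. With the number as a replicate block, 1722 genes fell and 2258 rose, against 1077 and 1250 in the main fit without it. Under the block *LHCB2.3* was again the only member called (edgeR adjusted p of 0.00362). In the other lists, 2 genes of chlorophyll synthesis fell with library totals, with DESeq2 and with the replicate block, 1 antenna relative fell with DESeq2 and with the replicate block, and 3 regulators rose with the replicate block. With 1 library left out, 0 to 1 Calvin cycle genes and 0 to 1 antenna relatives fell, and 1 to 2 regulators rose. Log2 fold changes near 0 changed sign. *CER6* was at -0.000517 with library totals. With 1 library left out, *PSBO2* ranged from -0.0136 to 0.36, *PSBQ2* from -0.27 to 0.00430 and *PSBY* from -0.37 to 0.10. The difference in the log2 ratio of *LHCB4.1* to *LHCB4.2* ranged from -0.000522 to 0.37, and that of *RBCS1A* to *RBCS3B* from -0.11 to 0.14 (0.0101 with total gene reads). The causes of these differences were not tested. The difference for *PSBO1* to *PSBO2* ranged from -0.70 to -0.47.

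With 3 libraries per group, the median standard error of 0.17 was large beside the members' median of -0.30, and a p above the threshold does not show that a level was the same in both groups.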
